A study of Mus musculus with 6 samples.

Results

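The miR-26 family of the mouse is made from 3 hairpin genes, Mir26a-1, Mir26a-2 and Mir26b, and these are 3 of the 1973 rows of a count table of miRNA genes. Their rows were found through the GENCODE M21 name of each Ensembl identifier. The rule uses no measured value, but the family was taken up with earlier results of these data known. The table describes small RNA of exosomes, the small vesicles that cells release into their medium. They came from HN9.10e, an immortalized line of embryonic mouse hippocampal neurons with the wild-type genotype, grown with fetal bovine serum. The 3 control libraries are exosomes of untreated cells, and the 3 ceramide libraries are exosomes of cells given 100 nM ceramide, a bioactive sphingolipid, with a collection time of 48 h. The comparison asks which miRNAs differ in exosomes released under ceramide. All libraries come from the same single line, and the study calls its replicates biological. The labels do not say which cultures the libraries came from, so the p-values measure the spread between these libraries.

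The members of a miRNA family share a seed, the bases near the 5′ end through which a miRNA pairs with its targets. Each hairpin is cut into a 5p and a 3p strand, and the 5p strand is the main product of the miR-26 hairpins. miR-26 is found in many tissues and rises in the differentiation of several cell types, and a well known target of it is the histone methyltransferase Ezh2. The hairpins lie inside genes for small CTD phosphatases, which help the repressor REST to keep neuronal genes silent outside neurons. miR-26b can in turn act on Ctdsp2, one of these phosphatase genes, during neural differentiation. The transcription factor MYC represses miR-26 together with the let-7, miR-29 and miR-30 families.

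The mature 5p strands are printed because they decide which row a read can be counted on. Capitals mark the seed, bases 2 to 8, in sequences from the RefSeq annotation of GRCm38.p6, which had all 3 hairpins.
miR-26a-5p, made from both Mir26a-1 and Mir26a-2: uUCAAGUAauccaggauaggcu
miR-26b-5p, made from Mir26b: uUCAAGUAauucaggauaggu
The 5p strands are 22 and 21 bases long and share the seed UCAAGUA. No other mouse miRNA among the 1738 mature entries of the same table has this seed. Counted from 1 at the 5′ end of miR-26a-5p, miR-26b-5p differs from it by 2 substitutions, C11U and C21U, and the longest stretch that they share is 10 bases.

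The 3p strands set the miR-26a hairpins apart from each other, since their 5p strands do not. They are shown with the same marking of bases 2 to 8.
miR-26a-1-3p: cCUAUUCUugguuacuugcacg
miR-26a-2-3p: cCUGUUCUugauuacuuguuuc
miR-26b-3p: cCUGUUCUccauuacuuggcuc
The 3p strands of Mir26a-2 and Mir26b share the seed CUGUUCU, and that of Mir26a-1 differs from it by 1 base, which is A4G when counted from the 5′ end of miR-26a-1-3p. Between the 3p strands of Mir26a-1 and Mir26a-2 there are 6 substitutions.

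Whole hairpins show how the strands sit in the counted genes. Capitals here mark the 5p and the 3p strand, in that order.
Mir26a-1: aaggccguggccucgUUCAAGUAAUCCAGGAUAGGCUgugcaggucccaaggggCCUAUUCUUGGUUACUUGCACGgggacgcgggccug
Mir26a-2: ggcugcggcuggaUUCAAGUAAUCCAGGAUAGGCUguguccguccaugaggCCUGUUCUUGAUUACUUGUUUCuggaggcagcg
Mir26b: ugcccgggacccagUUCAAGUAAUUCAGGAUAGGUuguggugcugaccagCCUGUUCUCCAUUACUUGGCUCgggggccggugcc
Mir26a-1 and Mir26a-2 have a stretch of 25 bases in common, which contains the whole mature miR-26a-5p. With Mir26b, the shared stretch is 11 bases for Mir26a-1 and 10 bases for Mir26a-2, below the minimum read length of 15 bases that the authors kept. Among the 2202 miRNA transcripts of GENCODE M21, no gene besides the family's own hairpins holds a window of 15 bases from any of these mature strands.

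On GRCm38 the Mir26a-1 hairpin (ENSMUSG00000065513) is at chr9:119031796-119031885 on the plus strand. It sits in an intron of 3283 bp of Ctdspl, in all 3 transcripts of that gene that span it. The Mir26a-2 hairpin (ENSMUSG00000065430) is at chr10:126995530-126995613 on the plus strand, in an intron of 1946 bp of Ctdsp2. The Mir26b hairpin (ENSMUSG00000065468) is at chr1:74394310-74394394 on the plus strand, in an intron of 564 bp of Ctdsp1. All 3 have the strand of their host gene, none lies in an exon, and no further gene of GENCODE M21 overlaps them.

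The total count per library ranged from 800810 to 2760015, with ceramide replicate 1 the shallowest and ceramide replicate 2 the deepest. A count is raw and belongs to a whole hairpin gene, so the 5p and 3p strands were not told apart. Control replicate 1 and ceramide replicate 1 were labelled with lane 1, the other control libraries with lane 4 and the other ceramide libraries with lane 2. As a check of the cell type, 13 rows of neuronal miRNAs were in the table and each had counts. Their summed level was 21378 to 22605 CPM (a count as its part per 1000000 of the library, scaled by the TMM method) in control libraries and 19956 to 24801 CPM in ceramide libraries, while the 3 rows of miR-124, the most specific neuronal miRNA, had 14.5 to 19.9 CPM as group means. Mir218-2 alone gave 9104 and 12483 CPM of this sum as group means, so the sum mostly follows a few rows. The median log2 fold change of the 13 rows was -0.43, with 7 rows lower and 1 higher without overlap of the groups. Over all tested rows 39.2% did not overlap in either direction, and 14.1% were higher without overlap. The 3 miR-124 rows are among the 7, and with 160, 159 and 159 counts in sum they are not separate measurements. The median is the value of Mir124a-1, 1 of these rows. Mir128-2 (-0.78), Mir138-1 (-0.76) and Mir153 (-0.84) were called lower in ceramide, and none was called higher. Of all tested rows, 8.37% were called lower and 3.11% higher. The 5 rows of blood cell miRNAs, a sign of serum in the medium, summed to 327 to 368 CPM in control libraries and 288 to 339 CPM in ceramide libraries. Most of this sum was Mir486, which had a log2 fold change of -0.26 with overlap of the groups. Mir223 was higher in ceramide without overlap, with a log2 fold change of 0.58 and an adjusted p of 0.055 in edgeR. Mir150 was lower without overlap (-0.37, adjusted p = 0.28 in edgeR). Mir122, the liver miRNA, had 51.8 to 61.8 CPM in control libraries and 73.6 to 75.3 CPM in ceramide libraries, which is the direction of miR-26 without overlap. The 4 rows of muscle miRNAs summed to 120 to 148 CPM in control and 134 to 167 CPM in ceramide libraries, which overlapped. Within them, 2 rows had a positive log2 fold change. One was Mir206, higher in ceramide without overlap (0.60, adjusted p = 0.054 in edgeR). The Mir133a rows went lower (-0.30), and limma-voom called 1 of the 4 rows. The part of these markers in the miR-26 results was not tested.

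The Mir26a-1 and Mir26a-2 rows held nearly the same counts in every library. Mir26a-1 had 4533, 6041 and 5190 counts in control replicates 1, 2 and 3, and Mir26a-2 had 4531, 6051 and 5196. In ceramide replicates 1, 2 and 3 the counts were 4241, 14551 and 11715 for Mir26a-1 and 4247, 14543 and 11699 for Mir26a-2. The rows differed by 2 to 16 counts, at most 0.165% of their mean, and neither was the larger in all libraries. A read of miR-26a-5p fits both hairpins, so the rows are treated here as 1 measurement of miR-26a, and their agreement is no replication. The amount of RNA from the Ctdspl intron against that from the Ctdsp2 intron cannot be read from these counts. Among the 346 rows with at least 10 counts in every library, 43 stayed within 5% of another row in all 6 libraries, so such pairs were not peculiar to miR-26a.

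The family was among the abundant miRNAs of these exosomes. By mean CPM over the 6 libraries Mir26b was number 35, Mir26a-2 number 40 and Mir26a-1 number 41 of the 418 rows that passed the filter on low counts, and all 3 members passed it. Their means over all libraries of 5417, 4768 and 4766 CPM lay 50.9, 44.8 and 44.8 times above the median row, which had 106 CPM. The nearest rows to Mir26b in level were Mir423 (5642 CPM) above it and Mir101b (5370 CPM) below it, and each was above Mir26b in 3 of the 6 libraries. Above Mir26a-2 came Mir3074-1 with 5069 CPM, higher than it in 3 of 6 libraries, and below Mir26a-1 came Mir15b with 4376 CPM, higher than it in 2 of 6. The order of these neighbours was therefore not the same in all libraries. Mir101b stood above Mir26b, and Mir3074-1 above Mir26a-2, in the 3 control libraries and in no ceramide library, so these orders followed the condition.

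In exosomes of ceramide-treated cells both miR-26 species were more abundant, by a factor of 1.27 for miR-26a and of 1.41 for miR-26b, and no ceramide library overlapped a control library. Of all tested rows, 14.1% were likewise higher in ceramide without overlap. None of the 3 rows reached the study's limit on the size of a change. The adjusted p of miR-26a was above 0.05 in 11 of 15 alternative analyses. The 3 rows are 2 measurements rather than 3, since the miR-26a rows count the same reads.

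Mir26b had 4306, 4773 and 4414 CPM in control replicates 1, 2 and 3, and 6621, 6613 and 5775 CPM in ceramide replicates 1, 2 and 3. The lowest ceramide library lay 1002 CPM above the highest control library. The control mean was 4498 ± 245 CPM and the ceramide mean 6336 ± 486 CPM (SD, n = 3 each). On the log2 scale the fold change of Mir26b was 0.49 with a standard error of 0.09, and edgeR's quasi-likelihood test, adjusted by Benjamini and Hochberg's method over the 418 rows, gave an adjusted p of 0.0088. The difference thus exceeded the spread between replicates and stayed under the log2 fold change of 0.6 that the study required.

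Mir26a-1 had 4519, 4291 and 3794 CPM in control replicates 1, 2 and 3, and 5505, 5506 and 4983 CPM in ceramide replicates 1, 2 and 3. The gap between the groups was 464 CPM, less than that of Mir26b. The group means were 4201 ± 371 CPM and 5331 ± 302 CPM (SD, n = 3 each). The fold change of Mir26a-1 on the log2 scale was 0.34 with a standard error of 0.09, for which edgeR gave an adjusted p of 0.044. Mir26a-2 gave 4205 ± 368 CPM and 5331 ± 307 CPM, with the same log2 fold change of 0.34 and the same adjusted p of 0.044 in edgeR. The miR-26a difference lost this adjusted p in 11 of the 15 alternative analyses, and that of Mir26b lost it in 4 of 15.

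**Figure D1:**
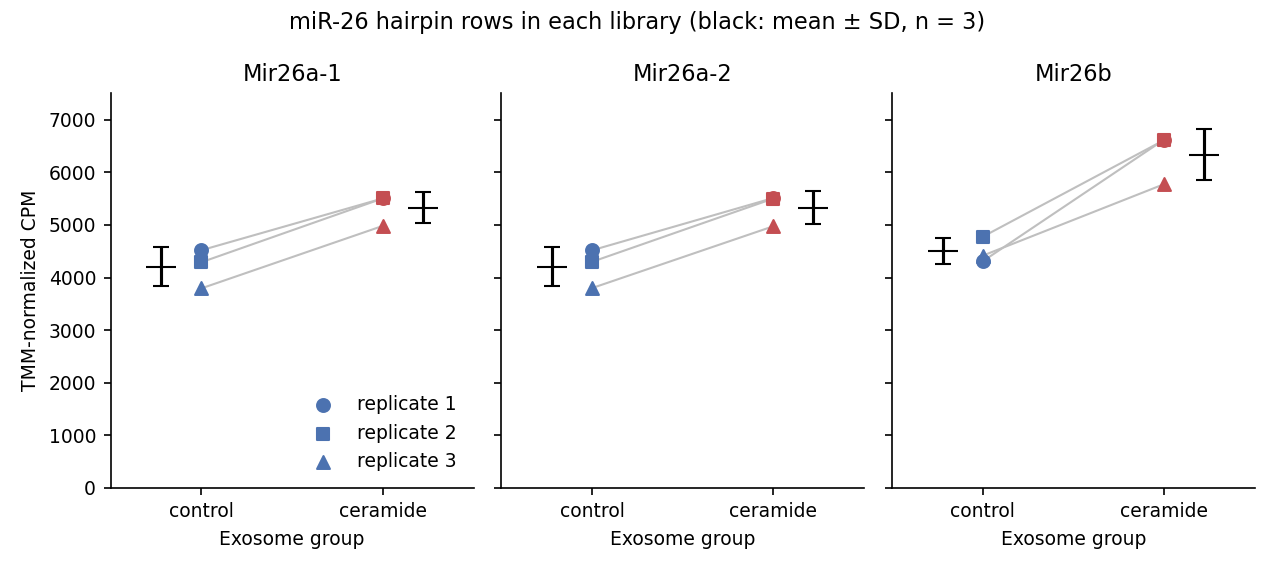
Normalized level (TMM-normalized CPM, linear axis from 0) of the 3 miR-26 hairpin rows in control and ceramide libraries. Each symbol is a library, grey lines join libraries with the same replicate number, and black bars are the mean ± SD of 3 libraries; in each row all ceramide libraries lie above all control libraries, and the Mir26a-1 and Mir26a-2 panels are nearly identical.

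Against the background of the whole table, 48 of 418 rows were called by both thresholds (11.5%), 13 of them higher (3.11%) and 35 lower (8.37%) in ceramide, and none of the 3 members was among them. DESeq2 and limma-voom also called no member, and each member had an unadjusted p under 0.05 in edgeR. An adjusted p of at most 0.05, with no limit on size, was reached by 83 rows (19.9%), of which 30 were higher in ceramide (7.18%), and the 3 members are among these 30. The groups did not overlap in 164 rows (39.2%), and in 59 rows (14.1%), the 3 members included, the ceramide libraries were the higher ones. A log2 fold change above that of Mir26b was seen in 69 rows, and one above that of Mir26a-1 in 107 rows, and 66 of the 69 and 99 of the 107 were less abundant than the member they exceeded. The median log2 fold change was -0.01 over all tested rows and -0.05 over the 50 most abundant, of which 23 had a positive value. A fit with the replicate block raised the calls to 87 rows (38 higher and 49 lower), still without the members.

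**Figure D2:**
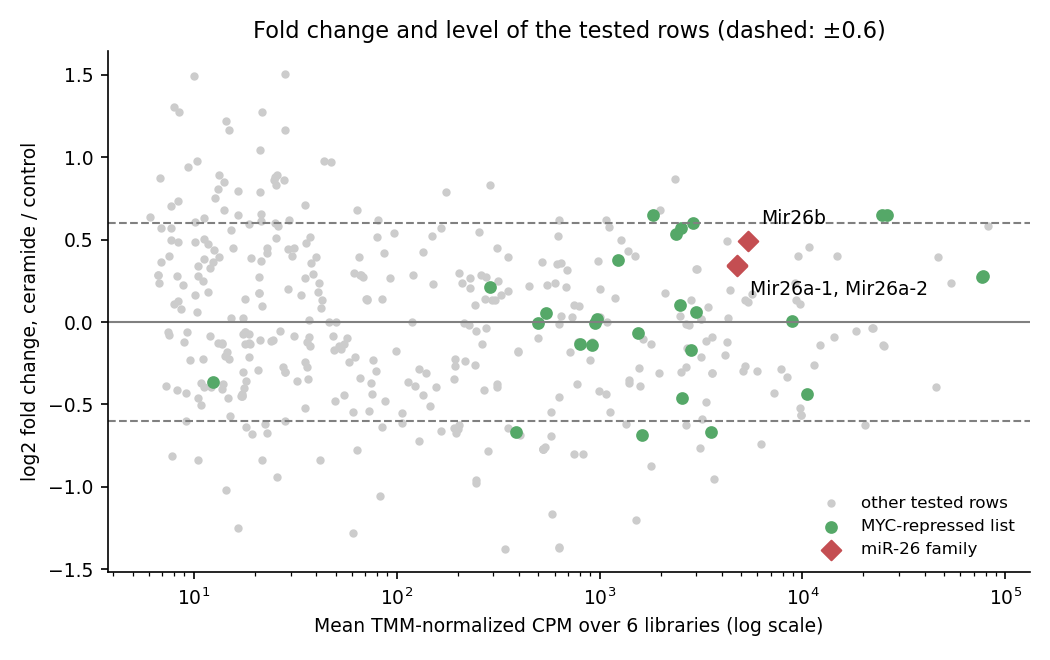
Log2 fold change of ceramide against control (y axis) and mean TMM-normalized CPM over 6 libraries (x axis, log scale) for the 418 tested rows. Grey points are other rows, green points the miRNAs known as repressed by MYC and red diamonds the miR-26 rows, which lie at 0.34 and 0.49, above 0 and under the dashed line at 0.6.

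Libraries with the same replicate number all showed the same direction. For Mir26b the log2 ratio of ceramide to control was 0.62, 0.47 and 0.39 within replicate numbers 1, 2 and 3. For Mir26a-1 it was 0.28, 0.36 and 0.39, so the numbers that gave the larger value for one species gave the smaller value for the other. The block fit gave a log2 fold change of 0.49 for Mir26b (standard error 0.06, adjusted p = 0.0026 in edgeR) and of 0.35 for Mir26a-1 (standard error 0.05, adjusted p = 0.0047). Lane label 1, the only one with both conditions, belongs to the pair numbered 1. Both of these libraries are also labelled with position 1 of a sample sheet, so the labels do not show that they shared a run. With the lane label as a term the log2 fold change was 0.62 for Mir26b and 0.28 for Mir26a-1. Only the pair numbered 1 informs the condition in that fit, and these values are the log2 ratios of that pair. The remaining lane labels hold 1 condition each, so lane and condition cannot be told apart there.

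The order of levels was set beside the depth of the libraries in each group. Ceramide replicates 1 and 2, with total counts of 800810 and 2760015, had 6621 and 6613 CPM of Mir26b and 5505 and 5506 CPM of Mir26a-1. Ceramide replicate 3, with a total count of 2351342, had 5775 CPM of Mir26b and 4983 CPM of Mir26a-1, the lowest of its group in both. In control replicates 1, 3 and 2, with total counts of 972344, 1313328 and 1393282, Mir26b had 4306, 4414 and 4773 CPM, in the order of depth, and Mir26a-1 had 4519, 3794 and 4291 CPM, which was not. The part of depth in the difference between the groups was not tested. Counting error was small beside the spread of replicates. The Poisson error of a Mir26b count was between 0.756% and 1.52%, and the coefficient of variation between replicates was 5.44% in control and 7.67% in ceramide exosomes. For Mir26a-1 the coefficient of variation was 8.82% and 5.66%. These errors cover counting only and hold if each count is a separate molecule, which the handling of molecular identifiers, not given in the sources used here, leaves unknown.

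With miR-26a counted once, as the mean of its rows, the family held a larger share of all counts in ceramide exosomes. The share was 0.910%, 0.916% and 0.855% in control replicates 1, 2 and 3, and 1.17%, 1.16% and 1.08% in ceramide replicates 1, 2 and 3. The lowest ceramide library was above the highest control library, and no 95% Wilson interval of a library reached further than 0.0238 percentage points from its value. The means were 0.894 ± 0.0337% and 1.13 ± 0.0511% (SD, n = 3 each), a difference of 0.240 percentage points (p = 0.1 in a two-sided exact permutation test, which cannot go lower with 3 libraries in each group). The share does not depend on TMM, but it moves with every other miRNA in the total.

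The balance of miR-26b to miR-26a is free of any scaling between libraries, since both counts come from the same library. The ratio was 0.953, 1.11 and 1.16 in control replicates 1, 2 and 3, and 1.20, 1.20 and 1.16 in ceramide replicates 1, 2 and 3. Only control replicate 1 had less miR-26b than miR-26a, and the groups overlapped, because control replicate 3 lay just above ceramide replicate 3. On the log2 scale the control mean of the ratio was 0.10 ± 0.15 and the ceramide mean 0.25 ± 0.03 (SD, n = 3 each). The difference of 0.15 was no larger than the spread in control (p = 0.2 in the same exact permutation test). Without control replicate 1 the difference fell to 0.06. A larger response of miR-26b than of miR-26a was therefore not shown by these libraries, although the fitted changes were 0.49 and 0.34.

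**Figure D3:**
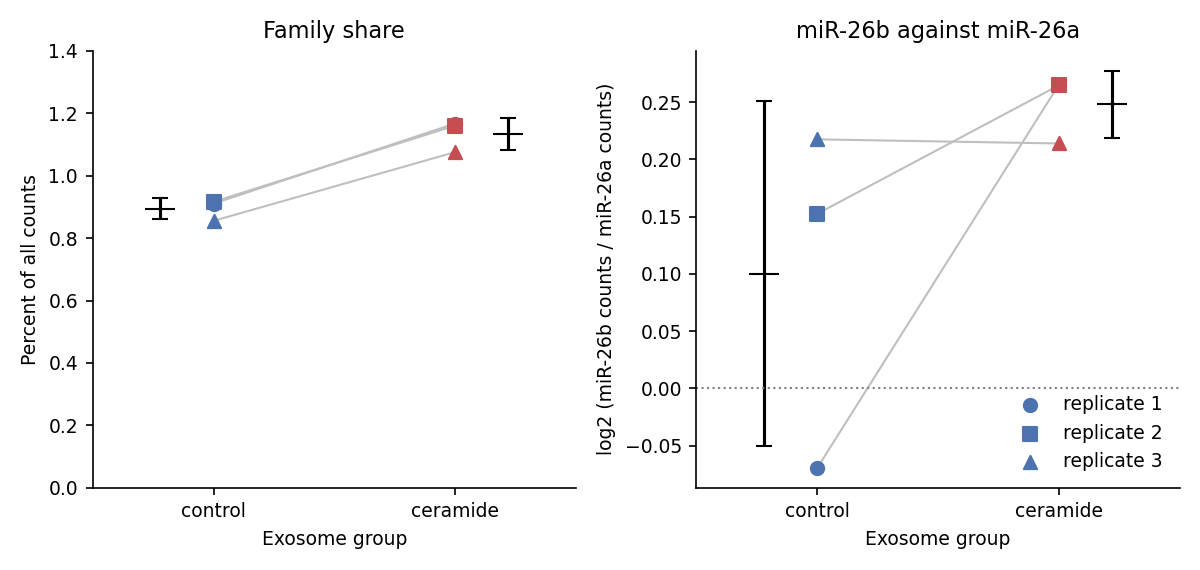
Left, percent of all counts in the miR-26 family with miR-26a counted once (axis from 0); right, log2 ratio of miR-26b to miR-26a counts, with equal counts at the dotted line. Symbols are libraries joined by replicate number and black bars the mean ± SD of 3 libraries; the shares of the groups do not overlap, while the ratios do, with control replicate 1 alone under 0.

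Over analysis settings the sign was positive throughout. The log2 fold change of Mir26b ranged from 0.41, with scaling by library size alone, to 0.62, with the lane as a term, and that of Mir26a-1 from 0.26, also with library size alone, to 0.41, with upper-quartile factors. Mir26b passed 0.6 only with the lane as a term, a fit that compares the conditions in the pair numbered 1 alone. Its adjusted p there missed 0.05, so no setting called it by both thresholds.

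**Figure D4:**
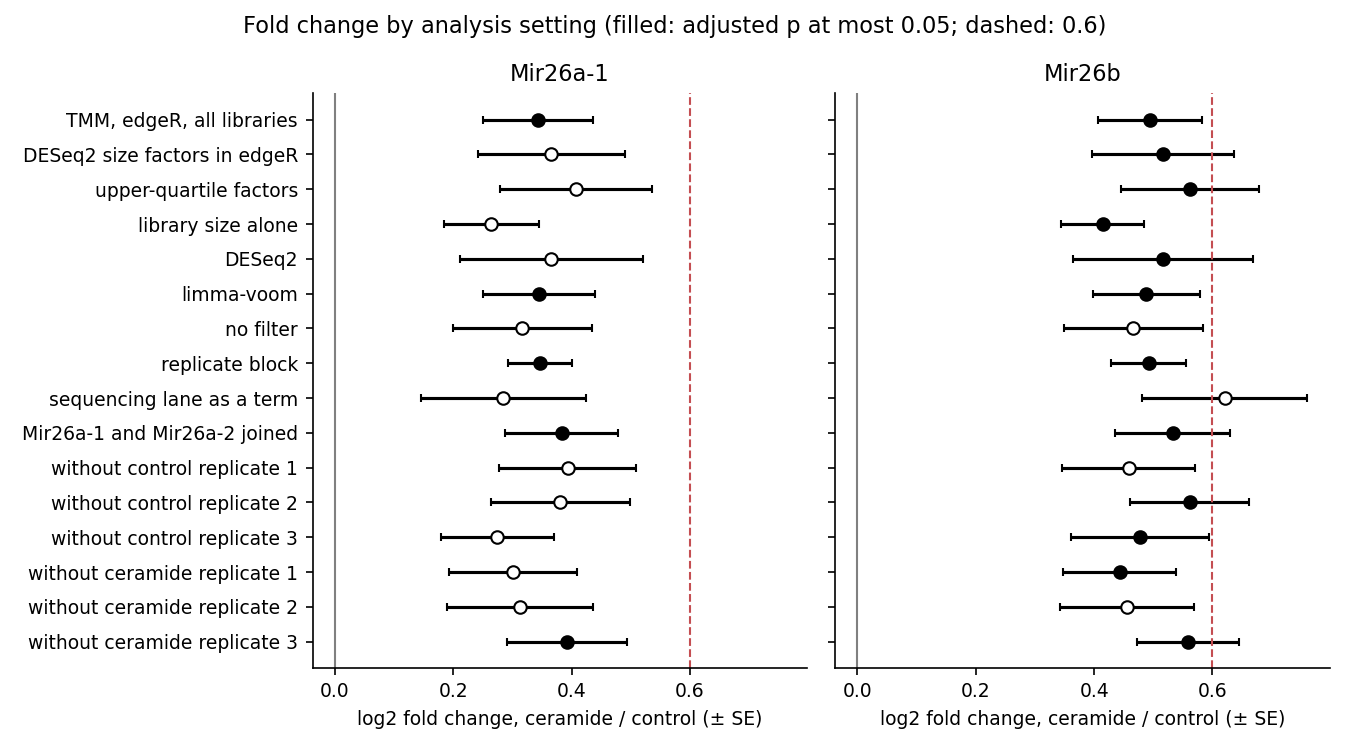
Log2 fold change (ceramide against control, ± standard error) of Mir26a-1 and Mir26b under each analysis setting, with filled symbols for an adjusted p of at most 0.05 and open symbols above it. All values are positive; 12 of 16 symbols are filled for Mir26b and 5 of 16 for Mir26a-1, and the dashed line marks 0.6.

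The miRNAs that MYC represses along with miR-26 were compared as a group, and they moved in both directions. Of 27 such rows in the table and tested, 4 were called higher and 3 lower in ceramide, against 3.11% and 8.37% of all rows tested, so the count of lower rows was near the background. An adjusted p of at most 0.05 alone was reached by 8 higher and 5 lower rows. Of all rows tested, 19.9% reached it in either direction, and 7.18% reached it and were higher. Mir16-1 and Mir16-2, with 753601 and 749468 counts in sum, are among the 8 higher rows, which are thus not all separate measurements. Their median log2 fold change was 0.02, against -0.01 over all tested rows. The called higher rows were all of the let-7 family, which restrains growth and marks differentiated cells: Mirlet7c-1 and Mirlet7c-2, whose counts largely overlap, Mirlet7a-1 and Mirlet7f-2, with log2 fold changes from 0.60 to 0.65. All of these rows fell under 0.6 with library size alone. The called lower rows were Mir22 (-0.68), Mir146 (-0.66), which holds the inflammation-linked miR-146a, and Mir30d (-0.67). Mir16-1 and Mir16-2, which carry the cell-cycle inhibitor miR-16, had log2 fold changes of 0.28 with adjusted p-values of 0.038 and 0.039 in edgeR. The miR-29 rows lay between -0.07 and 0.02. The miR-26 family, at 0.34 to 0.49, lay between the called let-7 rows and the miR-16 rows. The let-7 rows of the list that were not called ran from 0.06 (Mirlet7d) to 0.57 (Mirlet7a-2), on both sides of the family. A sign that differed among the 4 scalings was seen in 6 of the 27 rows, none of them called.

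The miRNAs tied to REST, the repressor that the host-gene phosphatases assist, had no called row among 8 in edgeR. With 11.5% of all rows called, a count of 0 in so few rows is near the background. The 8 rows, of miR-9, miR-124, miR-132, miR-212 and miR-137, had a median log2 fold change of -0.19 and a range from -0.45 to 0.24. One of them, named here after its values were seen, had an unadjusted p under 0.05, Mir137 (0.24, adjusted p = 0.091 in edgeR). Mir137 was higher without overlap of the groups, and the 3 miR-124 rows were lower without overlap (-0.45 to -0.43). Groups did not overlap in 39.2% of all tested rows. The miR-124 rows hold nearly the same counts, so they weigh on the median as 3 rows though they are not separate measurements. DESeq2 and limma-voom called none of the 8 either.

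The rows most like the members were sought by Pearson's correlation of log2 CPM over the 6 libraries, as a description, since libraries of a condition share it and their scaling. For Mir26b they were Mirlet7c-1, Mirlet7c-2, Mir196a-1, Mir196a-2 and Mir669c, with correlations from 0.995 to 0.996, and for miR-26a they were Mir192 (0.967), Mir137 (0.962), Mirlet7b (0.941), Mir669c (0.939) and Mir195a (0.933). The correlation between miR-26a and Mir26b was 0.909, lower than with these rows. Mir669c stood in both lists and, with a log2 fold change of 0.49 and 4245 CPM, was close to Mir26b in both quantities.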

How the data were processed

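Exosomal small RNA libraries were prepared with a QIAseq miRNA kit. The authors trimmed reads with cutadapt 1.15, aligned them to GRCm38 with STAR 2.5.3a, assigned them to GENCODE miRNA genes and deposited raw counts per gene; the GENCODE release, strand, multi-mapped reads and molecular identifiers are not given in the sources used here. Rows were named from GENCODE M21 (1894 of 1973 matched). The members and lists were chosen with earlier results of these data known.

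Conditions were compared by the quasi-likelihood test of edgeR 4.0.16 (R 4.3.3) with TMM, filterByExpr (418 rows, depth 800810 to 2760015 counts) and condition as the only term. A row was called at the study's thresholds, an adjusted p of at most 0.05 and a log2 fold change of at least 0.6 in size. The standard error is the fold change over the root of F. Alternatives were DESeq2 1.42.0, limma-voom (limma 3.58.1), other scalings, no filter, the lane, the replicate block, joined miR-26a rows and leaving out libraries. Deviations from group means correlated at 0.59, 0.43 and 0.75 between libraries numbered 1, 2 and 3. Between unlike numbers the correlations ran from -0.59 to 0.10. All rest on deviations from a mean of 3 libraries, so they are not independent. In the tests, the numbers were taken as pairs only in the replicate block, and the main test and the permutation tests were unpaired. Likeness used log2 CPM with a prior count of 2. Named were the members, their neighbours in level, the 5 most alike rows and rows of the lists that passed. One list name, Mir146a, was matched through its RefSeq synonym to Mir146 after the table was seen. On simulated counts, with 404 rows tested, the test called 82 of 94 rows changed by a fold of 2, 98 of 98 changed by 3, and 4 unchanged rows. These changes were larger than those of the members, so the simulation does not show how changes of their size are detected.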

Additional observations from a re-analysis of the deposited data

How the results depend on the processing

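Every fit gave the 3 members a positive log2 fold change, and none of the 15 alternatives called any of them by both thresholds. The adjusted p alone was less steady. For Mir26a-1 and Mir26a-2 it rose above 0.05 with DESeq2's size factors in edgeR (log2 fold changes of 0.37 and 0.36). It did so too with upper-quartile factors (0.41 and 0.41), library size alone (0.26 and 0.26) and DESeq2 itself (0.37 and 0.36). The same held with no filter (0.32 and 0.32) and with the sequencing lane as a term (0.28 and 0.29). The lane fit compares the conditions only in the pair numbered 1, and its log2 fold changes are those of that pair. Leaving out each library in turn gave 0.27 to 0.39 for both rows, with an adjusted p above 0.05 in 5 of 6 fits, all except that without ceramide replicate 3. Mir26b lost it with no filter (0.47, adjusted p = 0.054 from edgeR) and with the lane (0.62), and, within a range of 0.44 to 0.56 over the left-out libraries, without control replicate 1 (adjusted p = 0.060) and without ceramide replicate 2 (adjusted p = 0.064). Leaving out a single library was thus enough to move these values across 0.05, and each such fit also has fewer libraries. The cause was not tested.

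The number of rows called was 48, and it became 87 with the replicate block and 29 with the lane. Leaving out libraries gave 28 to 55, the lowest without control replicate 1. With Mir26a-1 and Mir26a-2 joined it was 43, 15 higher and 28 lower, against 13 and 35, with upper-quartile factors 23 higher and 28 lower, and with library size alone 4 and 42. With the replicate block the members kept their side of each threshold.

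The family's share differed by 0.240 percentage points, by 0.327 with both miR-26a rows counted, and by 0.221 to 0.270 without single libraries. The difference in the log2 ratio of miR-26b to miR-26a was 0.15 and ranged from 0.06, without control replicate 1, to 0.21. Joint counting on both hairpins limits what can be said of Mir26a-1 and Mir26a-2, not depth.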
